A study of Mus musculus with 8 samples.

Results

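The miR-17-92 and miR-106b-25 clusters are short stretches of the mouse genome that each encode several microRNAs (miRNAs) in 1 primary transcript. Their members were taken by name from the probe annotation of the arrays, as mmu-miR-17, mmu-miR-18a, mmu-miR-19a, mmu-miR-19b, mmu-miR-20a and mmu-miR-92a for the first cluster and mmu-miR-106b, mmu-miR-93 and mmu-miR-25 for the second. The prefix mmu, for mouse, is left out from here on. All 9 were present, of 567 mouse miRNAs with probes. Of the 9, 6 were detected on at least 4 of the 8 arrays and could be tested, namely miR-19b, miR-20a, miR-92a, miR-106b, miR-93 and miR-25. The other 3, miR-17, miR-18a and miR-19a, stayed under this minimum and are described without a test.

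The RNA came from skeletal muscle, with 4 control and 4 diabetic samples, each on an Agilent miRNA array of its own that was read in a single colour (Cy3). The design text names obese diabetic C57BL/KsJ db/db mice and normal C57BL/KsJ db+ controls. The db/db mouse lacks a working leptin receptor. The titles, descriptions and group entries of the samples name 4 control and 4 diabetic arrays, but their strain entries are the other way round, with C57BL/KsJ db/db for the control and C57BL/KsJ db+ for the diabetic samples. Every difference below is diabetic minus control by title, and its direction rests on the titles being right. The labels give neither the muscle, the age nor the sex of the animals, and do not say whether each array stood for a separate animal, so p-values measure the spread between these samples, which may be technical.

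The miRNAs of these clusters are co-transcribed, cut from their hairpins and loaded into Argonaute, where the seed (bases 2 to 8) selects target mRNAs. The miR-17-92 transcript is driven by Myc and E2f factors and is abundant in dividing cells and in lymphocytes, and its miRNAs repress inhibitors of survival such as the pro-apoptotic Bcl2l11. The miR-106b-25 hairpins lie in an intron of Mcm7, a gene of the DNA replication helicase.

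The mature sequences sort the 9 members by seed rather than by cluster, which is why they are shown in full, 5′ to 3′ and with the seed in capitals. They come from RefSeq on GRCm38.p6, to which all 9 members were matched by name, with the arm that the undecorated array name stands for. The probe sequences were not used here. The first group shares the seed AAAGUGC and holds miR-17 and miR-20a of the first cluster with miR-106b and miR-93 of the second.
miR-17: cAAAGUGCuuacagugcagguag
miR-20a: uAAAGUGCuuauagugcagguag
miR-106b: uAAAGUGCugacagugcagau
miR-93: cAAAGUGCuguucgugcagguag
The second seed, AAGGUGC, belongs to miR-18a alone among the members.
miR-18a: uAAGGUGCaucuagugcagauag
The third seed, GUGCAAA, is that of miR-19a and miR-19b, which differ at 1 base (U11C, counted from 1 at the 5′ end, with the base of miR-19a first).
miR-19a: uGUGCAAAucuaugcaaaacuga
miR-19b: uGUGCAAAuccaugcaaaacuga
The fourth seed, AUUGCAC, joins miR-92a of the first cluster with miR-25 of the second.
miR-92a: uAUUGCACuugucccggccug
miR-25: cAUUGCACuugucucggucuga

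In GRCm38.p6 the 6 hairpins of miR-17-92 span 836 bases on the plus strand, chr14:115043671-115044506. The 3 hairpins of miR-106b-25 span 498 bases on the minus strand, chr5:138165321-138165818, and all 3 lie inside Mcm7. The mature miR-19b and miR-92a are each encoded by 2 hairpin genes, because the paralogous miR-106a-363 cluster on chromosome X carries a second copy of both, so their signal cannot be assigned to miR-17-92 alone. Aligned from the first base without gaps, miR-17 and miR-20a differ at 2 of 23 bases, miR-20a and miR-106b at 3 of 21, and miR-92a and miR-25 at 3 of 21. Whether a probe of such a member also binds its relative was not tested.

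The members fell into those measured on every array, those near the detection limit and those not detected. Each member had 2 probes and 20 spots on an array, and a probe counted as detected where at least 50% of its spots, outliers left out, were flagged well above background. miR-19b, miR-20a, miR-92a, miR-106b and miR-25 were detected on all 8 arrays. miR-93 was detected on 3 of 4 control arrays (not control 3) and on 3 of 4 diabetic arrays (not diabetic 4).

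miR-17, which gives the first cluster its name and represses Cdkn1a and E2f1, was detected on 0 of 8 arrays. None of its 148 usable spots was flagged well above background, and the mean intensity of its probes lay between −6.17 and −0.40, below the subtracted background. The lowest intensity of a detected probe was 11.5 to 19.3 across the arrays. On the same arrays miR-20a, whose hairpin lies in the same cluster and whose mature sequence differs at 2 bases, had 142 of 147 usable spots above background. Signals of different probes are not on a common scale, so these counts do not give an order of abundance.

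miR-18a, a repressor of connective tissue growth factor, was detected on 1 array, control 2. Its brighter probe read 55.2 there, with 9 of 9 usable spots above background, and between 4.11 and 8.22 on the other 7 arrays with 0 spots above background. The log2 mean of this probe on the control arrays, −5.08, was below −4.64, the mean over the diabetic arrays of the lowest level detected on each, so no fold is given. miR-19a, which shares its seed with miR-19b, was detected on control 2 and on diabetic 1. Its brighter probe read 36.1 on control 2 and 13.6 on diabetic 1, and between 5.36 and 11.5 on the other 6 arrays. For both faint members the highest reading was thus on control 2.

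**Figure D1:**
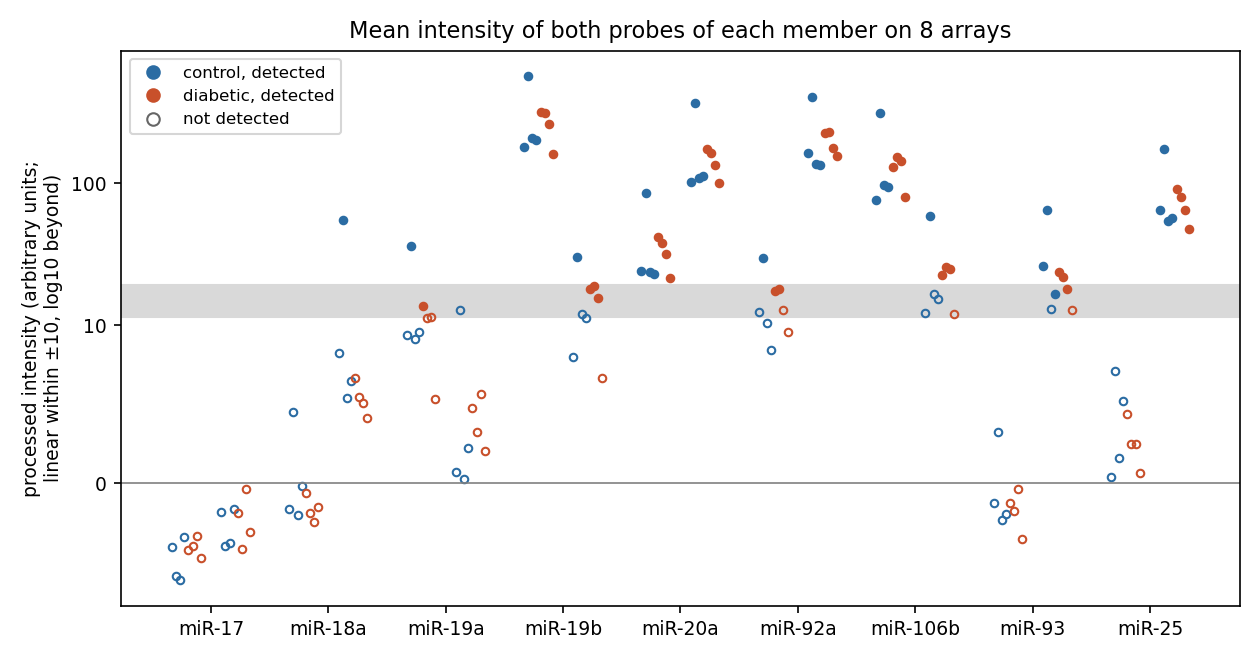
Mean processed intensity (vertical axis, arbitrary units, linear within ±10 and log10 beyond) of both probes of each member, side by side, on the 4 control (blue) and 4 diabetic (orange) arrays, with filled points for detected and open points for undetected probes. The grey band spans the lowest detected intensities of the 8 arrays, 11.5 to 19.3. All points of miR-17 lie below 0, and a single point of miR-18a, from control 2, is filled.

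Of the 6 tested members, 0 passed the threshold between diabetic and control arrays in either direction, where 4.76% of the 126 tested miRNAs passed as higher and 0% as lower (limma, Benjamini-Hochberg adjusted p under 0.05 over all 126). At an unadjusted p under 0.05 there were again 0 of the 6, against 21 of the 126. The groups overlapped for all 6 members, while they did not overlap for 8.73% of all tested miRNAs. The log2 differences of the 6 ran from −0.36 to 0.17 with a median of 0.077, beside a median of −0.060 over all 126, and 4 of the 6 were positive, beside 46% of all. In each tested member the 95% interval of the difference contained 0. Levels below are intensities divided by the 75th percentile of the array and given as log2, a scale on which members are not compared with each other.

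miR-19b, the tested member of the first cluster with the miR-19 seed, read −1.72, −1.04, −1.61 and −1.61 on control arrays 1 to 4 and −1.09, −1.52, −1.58 and −1.38 on diabetic arrays 1 to 4. Control 2 and diabetic 1 were the high arrays of their groups, and the ranges overlapped almost entirely. The group means were −1.49 ± 0.31 and −1.39 ± 0.22 (SD, n = 4), with a log2 difference of 0.10 (SE 0.22, 95% interval −0.39 to 0.59, limma adjusted p = 0.869).

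miR-20a, which shares its seed with miR-17 and represses E2f1 and Cdkn1a, read −2.28, −1.45, −2.33 and −2.27 on the control arrays and −1.72, −2.24, −2.30 and −1.84 on the diabetic arrays. Control 2 stood far above the other control arrays, and diabetic 1 and diabetic 4 were the higher diabetic arrays. The log2 difference was 0.054 (SE 0.26, 95% interval −0.51 to 0.61, limma adjusted p = 0.893). Without control 2 it was 0.26, and it was negative without control 1, control 3, control 4, diabetic 1 or diabetic 4, so its sign is not settled.

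miR-92a, an inhibitor of angiogenic sprouting in endothelial cells, read −1.80, −1.50, −2.20 and −2.18 on the control arrays and −1.55, −1.96, −2.11 and −1.40 on the diabetic arrays. Here diabetic 4 was the highest array of all and control 2 the second. The log2 difference was 0.17 (SE 0.25, 95% interval −0.37 to 0.70, limma adjusted p = 0.792). With single arrays left out it ran from 0.048 without diabetic 4 to 0.31 without control 2, and it was 0.073 without control 3, 0.077 without control 4 and 0.096 without diabetic 1.

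In the second cluster miR-106b, another repressor of Cdkn1a, read −2.79, −1.72, −2.56 and −2.58 on the control arrays and −2.23, −2.42, −2.30 and −2.26 on the diabetic arrays. The control arrays thus lay on both sides of all the diabetic arrays, with control 2 above and the other 3 below them. The log2 difference was 0.11 (SE 0.25, 95% interval −0.43 to 0.65, limma adjusted p = 0.869), and it was 0.34 without control 2 (limma adjusted p = 0.178, the lowest over its alternatives, which reached 0.998). The SD of miR-106b was 0.47 in the control group and 0.081 in the diabetic group. Its sign turned without control 1, at −0.017, and the difference was 0.061 without control 3 and 0.053 without control 4.

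miR-93, of the same seed, read −4.63, −4.18, −5.95 and −5.48 on the control arrays and −4.996, −5.58, −5.55 and −5.57 on the diabetic arrays. The value of control 3 is the floor below which levels were not resolved, and this value and that of diabetic 4 came from arrays on which miR-93 was not detected. Its log2 difference, the widest of the 6 in size, was −0.36 (SE 0.36, 95% interval −1.14 to 0.41, limma adjusted p = 0.699). It ran from −0.66 without control 3 to −0.071 without control 2, and was −0.040 with normexp background correction, so its size rests on single arrays and on how dim spots are treated.

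miR-25, which shares its seed with miR-92a and represses Bcl2l11, read −3.25, −2.77, −3.59 and −3.40 on the control arrays and −2.92, −3.53, −3.61 and −3.19 on the diabetic arrays. As for its cluster mates, control 2 was the highest control array and diabetic 1 the highest diabetic array. The log2 difference was −0.059 (SE 0.25, 95% interval −0.60 to 0.48, limma adjusted p = 0.886). It was positive without control 2, at 0.10, without diabetic 2, at 0.015, and without diabetic 3, at 0.039. It was positive too when all mouse probes set the percentile, at 0.26, and with quantile normalization, at 0.11.

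**Figure D2:**
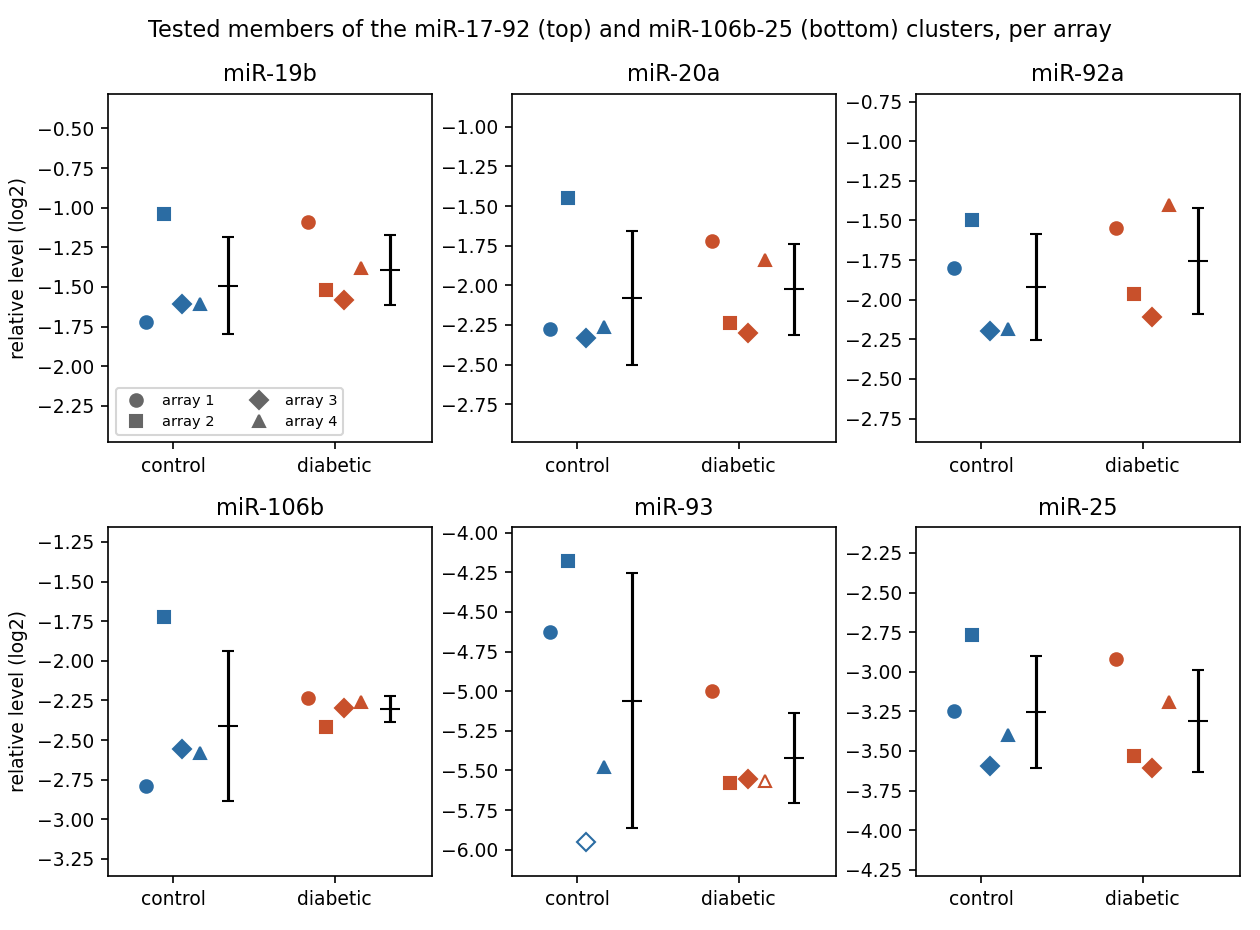
Relative level (vertical axis, log2) of the 6 tested members on the 4 control (blue) and 4 diabetic (orange) arrays, with a marker shape for each replicate number, open points for arrays without detection, and black bars for the group mean ± SD. Every panel spans the same width of 2.2 log2 units around its own centre. The control 2 square is the highest control point in every panel, and the groups overlap in all 6.

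**Figure D3:**
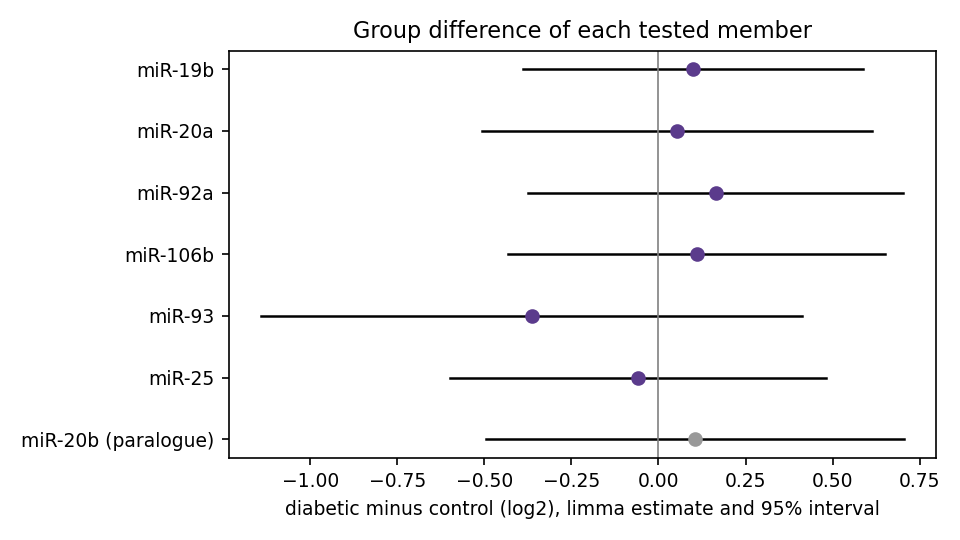
Limma log2 difference, diabetic minus control (horizontal axis), of the 6 tested members and of the paralogue miR-20b, with 95% intervals as lines. All 7 intervals contain 0, and that of miR-93 is the widest, from −1.14 to 0.41.

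Only miR-20a had both probes detected on all 8 arrays, with log2 differences, diabetic minus control, of 0.045 and 0.094. The brighter probes of miR-19b, miR-92a and miR-106b, detected on all 8 arrays, gave 0.098, 0.16 and 0.11. Their dimmer probes gave 0.13, 0.17 and 0.087, values that include arrays without detection. The dimmer probe was detected on 1 control and 3 diabetic arrays for miR-19b and for miR-106b, and on 1 control and 2 diabetic arrays for miR-92a. For miR-93 and miR-25 a single probe carried the signal, with differences of −0.30 and −0.047. Their second probes were detected on 0 of 8 arrays. The spread between spots was small where the signal was high, with a median coefficient of variation of 5.28% for the brighter probe of miR-92a and 5.81% for that of miR-106b, against 17.2% for the probe of miR-93.

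On several arrays, but not on all, the 6 members lay on the same side of their control means. On control 2 all 6 lay above their control means, by 0.42 to 0.88, and on diabetic 1 all 6 did so by 0.063 to 0.40. On control 3, control 4 and diabetic 2, by contrast, 0 of the 6 lay above the control mean, and on diabetic 3 only 1 did. The control means include control 2, which raised them for all 6 members, so the counts on the other arrays depend on that array. The counts were not repeated without it. The members went both ways on control 1, with 3 of 6 above (−0.38 to 0.43), and on diabetic 4, with 5 of 6 above (−0.51 to 0.52). Control 2 gave the highest value of the 8 arrays for 5 of the 6 members, while the median of all 126 tested miRNAs on that array was 0.39 below its control mean (−0.39 on the log2 scale).

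The mean of the 3 tested miR-17-92 members was −1.93, −1.33, −2.04 and −2.02 on the control arrays and −1.45, −1.91, −1.997 and −1.54 on the diabetic arrays. For the 3 members of miR-106b-25 it was −3.55, −2.89, −4.03 and −3.82 on the control and −3.38, −3.84, −3.82 and −3.67 on the diabetic arrays. In both clusters control 2 came first and diabetic 1 second. The mean log2 difference was 0.11 for miR-17-92 and −0.10 for miR-106b-25, given without a test because the members were a chosen list. With single arrays left out, the miR-17-92 value ran from 0.016 without diabetic 1 to 0.27 without control 2, and was 0.035 without control 3, 0.044 without control 4 and 0.045 without diabetic 4. The miR-106b-25 value ran from −0.26 without control 3 to 0.12 without control 2, and was −0.20 without diabetic 1. Scaling by all mouse probes gave 0.43 and 0.20, quantile normalization 0.17 and 0.065, and no scaling 0.00082 and −0.19, so the sign for miR-106b-25 is not settled.

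Ratios between members on the same array do not depend on which single factor scales the array, since it cancels unless a level lies at the floor. Quantile normalization and the background correction do change them. The ratios ask whether the make-up of a cluster differed between the groups. Of 23 planned pairs, 9 had both members tested. None of the 9 ratios passed after Benjamini-Hochberg adjustment (two-sided exact permutation tests over 70 assignments, smallest possible p = 0.0286, smallest adjusted p = 0.643), and 0 of 9 had an unadjusted exact permutation p under 0.05. An exact permutation p of 0.0286 in a single ratio adjusts to 0.257 over the 9, so a change confined to a single ratio could not pass. The adjusted test therefore does not show that the make-up of a cluster was unchanged. The groups overlapped in all 9. For single miRNAs they did not overlap in 8.73% of those tested, and the share over all pairs was not computed.

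Within miR-17-92, the log2 ratio of miR-19b over miR-20a was 0.59 ± 0.14 on the control and 0.63 ± 0.12 on the diabetic arrays (SD, n = 4, change 0.046, SE 0.092, exact permutation p = 0.657). It varied by an SD of 0.12 over the 8 arrays, less than either member alone, whose SDs were 0.25 and 0.34. Over all 7875 pairs of tested miRNAs the median of this SD was 0.54, and 81 pairs had a smaller one, a description in which bright pairs are favoured. The range over the 9 ratios was wide, up to 0.53 for miR-106b over miR-93, where 3809 pairs had a smaller SD. Ratios across the clusters could be as tight as those within miR-17-92, with 0.18 both for miR-20a over miR-106b and for miR-92a over miR-25. The ratio was lowest on control 2, at 0.41, the array on which each of them was highest. miR-19b and miR-20a have different seeds.

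The other ratios of the first cluster varied somewhat more, with SDs over the 8 arrays of 0.18 and 0.22. That of miR-20a over miR-92a was −0.16 ± 0.23 on the control and −0.27 ± 0.12 on the diabetic arrays (SD, n = 4, change −0.11, SE 0.13, exact permutation p = 0.40). Its change was −0.22 without control 1, −0.041 without control 2 and −0.055 without diabetic 4. That of miR-19b over miR-92a was 0.43 ± 0.24 and 0.36 ± 0.23 (SD, n = 4, change −0.065, SE 0.17, exact permutation p = 0.514), with low values of 0.080 on control 1 and 0.024 on diabetic 4 beside 0.44 to 0.59 on the other 6 arrays.

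In miR-106b-25 the ratios were looser. The log2 ratio of miR-106b over miR-93 read 1.84, 2.46, 3.39 and 2.90 on the control arrays and 2.76, 3.16, 3.25 and 3.31 on the diabetic arrays. Its change of 0.47 (SE 0.35) was the largest in size of the 9 and was within the spread of the control arrays (exact permutation p = 0.257). The control 3 ratio uses the floor value of miR-93. The change was 0.72 without control 3, 0.20 without control 1 and 0.072 with normexp background correction. With the floor at the 5th percentile it was 0.48 (exact permutation p = 0.0286, adjusted p = 0.257). The ratio of miR-106b over miR-25, both detected on every array, was 0.84 ± 0.27 and 1.01 ± 0.27 (SD, n = 4, change 0.17, SE 0.19, exact permutation p = 0.429). Its change was 0.041 without control 1, 0.069 without diabetic 3, 0.28 without diabetic 1 and 0.052 with normexp. That of miR-93 over miR-25, which also uses the floor value on control 3, changed by −0.31 (SE 0.26, exact permutation p = 0.343). This was −0.16 without control 1, −0.17 without control 2, −0.49 without control 3 and −0.021 with normexp.

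Across the clusters, miR-92a over miR-25, which share a seed, had the smallest unadjusted p of the 9. It read 1.45, 1.27, 1.40 and 1.21 on the control arrays and 1.37, 1.57, 1.499 and 1.79 on the diabetic arrays, so that 3 diabetic arrays lay above all control arrays and diabetic 1 among them. The change was 0.22 (SE 0.10, exact permutation p = 0.0857, adjusted p = 0.643). It was 0.15 without diabetic 4 and 0.29 without diabetic 1 (exact permutation p = 0.0286, adjusted p = 0.257), and 0.095 both with quantile normalization and with normexp. The ratio of miR-20a over miR-106b changed by −0.055 (SE 0.13, exact permutation p = 0.743), and that of miR-20a over miR-93 by 0.42 (SE 0.30, exact permutation p = 0.20). The latter again uses the floor value on control 3, and was 0.63 without that array (exact permutation p = 0.0286, adjusted p = 0.257), 0.21 without control 1 and 0.046 with normexp.

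**Figure D4:**
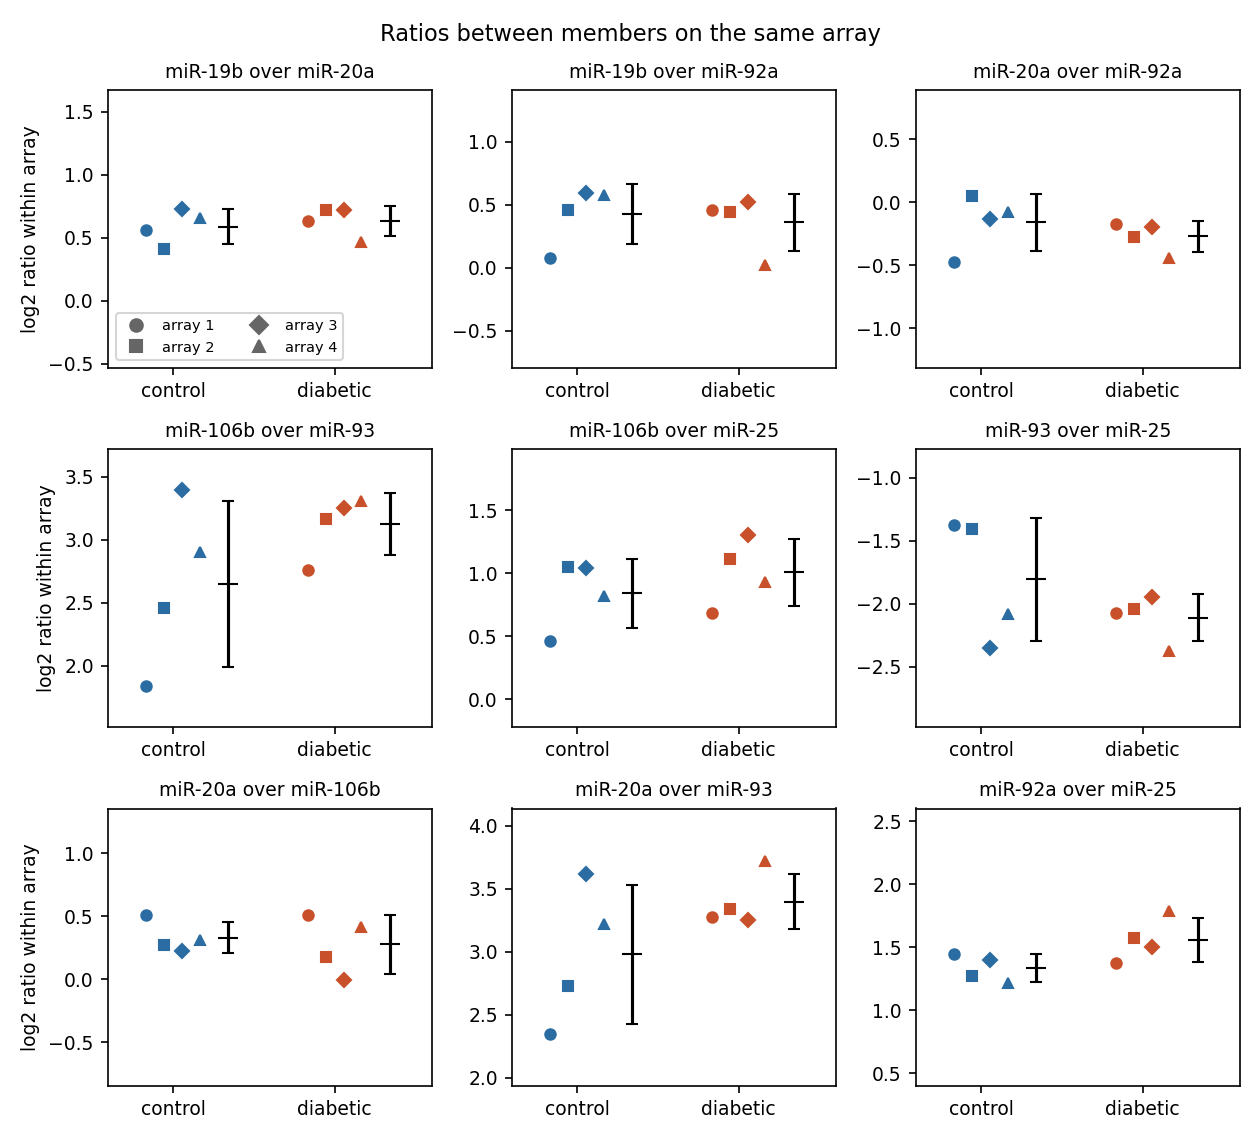
Log2 ratio between members on the same array (vertical axis), with the ratios within miR-17-92 in the top row, within miR-106b-25 in the middle row and across the clusters in the bottom row, for the 4 control (blue) and 4 diabetic (orange) arrays, with black bars for the mean ± SD. Every panel spans 2.2 log2 units. The points of miR-19b over miR-20a lie between 0.41 and 0.73, whereas those of miR-106b over miR-93 spread from 1.84 to 3.39.

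Of the relatives of the clusters, only miR-20b was tested. It belongs to the miR-106a-363 cluster, differs from miR-20a at 2 of 23 bases, and was detected on 1 control array, control 2, and on 3 diabetic arrays. It read −5.24, −4.25, −5.38 and −5.23 on the control and −4.58, −5.22, −4.98 and −4.89 on the diabetic arrays (log2 difference 0.10, SE 0.27, limma adjusted p = 0.869). The other 5 related miRNAs (miR-106a, miR-18b, miR-363, miR-92b and miR-32) and the 8 other-strand entries of these hairpins on the array (miR-17*, miR-18a*, miR-19a*, miR-20a*, miR-92a*, miR-106b*, miR-93* and miR-20b*) were detected on 0 of 8 arrays. The strand that Argonaute keeps less often was thus not detected for any of these 8 hairpins.

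The non-members whose profile over the 8 arrays lay nearest to the clusters were the same for both. The measure was the root mean square difference of log2 levels after each profile was centred on its own mean. For miR-17-92 it was 0.15 for miR-20b, 0.19 for miR-16, a miRNA of the miR-15 family that represses cyclins and Bcl2, and 0.25 for miR-148a, against a median of 0.48 over 120 non-members. For miR-106b-25 it was 0.15, 0.20 and 0.26 against a median of 0.54. The order is a description over 8 arrays and favours miRNAs that vary little. Whether the probes of miR-20b also bind miR-20a, which differs at 2 of 23 bases, was not tested. Neither miR-16 nor miR-148a passed the test, with differences of −0.097 (SE 0.20) and −0.080 (SE 0.24) and limma adjusted p of 0.869 and 0.879.

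Markers of the tissue and of other cells were read on the same scale, as the summed linear level of each fixed list. Of 6 skeletal muscle miRNAs 5 were tested, with miR-499 detected on 0 arrays, and their sum was 52.7 on control 2 against 87.6 to 103 on the other control and 77.9 to 107 on the diabetic arrays. Of 7 leukocyte miRNAs 3 were tested, miR-150 and miR-146a were detected on 0 arrays, and the sum was 2.10 on control 2 against 0.386 to 0.775 on the other control and 0.217 to 0.670 on the diabetic arrays. miR-142-3p was detected on 3 control and 0 diabetic arrays, too few for a test. The share of all miRNAs detected in 1 group only was not computed, so this count is not read as a difference. The 3 tested leukocyte miRNAs had negative log2 differences, of −1.29 for miR-223, −0.20 for miR-155 and −0.80 for miR-342-3p (limma adjusted p = 0.344, 0.699 and 0.0611). Negative differences were not particular to this list. miR-206 was at −1.33, miR-208b at −0.53, miR-451 at −0.33 and miR-126-3p at −0.065. The 4 tested fibroblast and stromal miRNAs lay between −0.66 and −0.030. Positive were miR-1, miR-133a, miR-133b, miR-122 and miR-192, and 46% of all 126 tested miRNAs. On these scaled levels, the array on which most cluster members were highest also had the highest leukocyte and the lowest muscle sum. That array, control 2, also had the highest erythroid and the lowest endothelial and liver sums of all arrays on this scale. Each sum is divided by the 75th percentile of its array, which was largest on control 2, at 618. The sums were not compared without scaling, so low muscle, endothelial and liver sums there cannot be told apart from the large divisor. On diabetic 1, the next highest for both clusters, the leukocyte sum was 0.258. The part of these lists in the levels of the clusters was not tested, and in bulk RNA fewer cells of a type and less RNA per cell cannot be told apart.

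The 2 erythroid miRNAs (1 tested) summed to 2.43 on control 2, and to 0.852 to 1.33 on the other control and 0.688 to 1.51 on the diabetic arrays. The endothelial list (1 of 2 tested, miR-126-5p detected on 0 arrays) summed to 1.59 to 2.65 on the control, with control 2 the lowest after scaling, and 1.79 to 2.45 on the diabetic arrays. The fibroblast and stromal list (4 tested of 5 on the array, miR-145 detected on 0) gave 0.564 to 0.913 and 0.535 to 0.564. The liver list (2 of 3 tested, miR-194 detected on 0) gave 0.0397 to 0.190, with control 2 the lowest after scaling, and 0.0736 to 0.125. Its low sums lie near the floor of 0.0162 for a single miRNA. In this list miR-122 was detected on 2 control and 3 diabetic arrays, and miR-192 on 3 and 4. In each of the 6 lists 0 tested markers passed the limma threshold, which 4.76% of the 126 tested miRNAs passed as higher and 0% as lower.

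**Figure D5:**
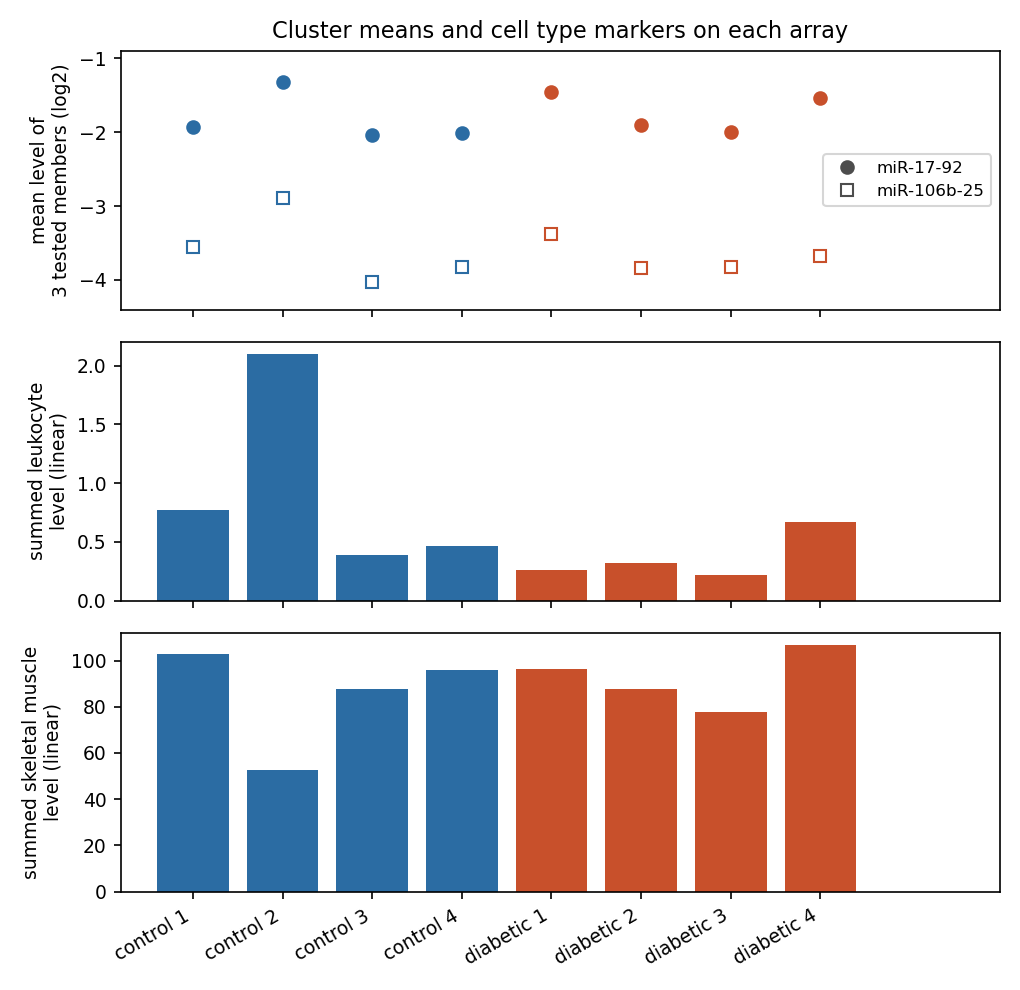
Mean log2 level of the 3 tested members of each cluster (top, filled circles for miR-17-92 and open squares for miR-106b-25), and the summed linear level of the leukocyte (middle) and skeletal muscle (bottom) marker lists on each control (blue) and diabetic (orange) array. After scaling, both cluster means and the leukocyte sum (2.10) are at their highest on control 2, and the muscle sum is at its lowest, 52.7. The percentile by which each array was divided was largest on control 2, at 618. The low muscle sum there cannot be told apart from this large divisor.

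The arrays differed in brightness. The 75th percentile used for scaling was 308 to 618 on the control arrays, with control 2 the brightest, and 219 to 479 on the diabetic arrays, with diabetic 4 the dimmest, and 112 to 147 and 102 to 131 miRNAs were detected. The control arrays also varied more, for 6 of the 6 tested members and for 113 of all 126 tested miRNAs, with a median SD for the members of 0.39 in the control and 0.29 in the diabetic group. The control arrays lay in 1 row of the slide and the diabetic arrays in the other, so slide row cannot be told apart from group. The replicate number equalled the slide column in both groups, and with it as a block 0 members passed the limma threshold.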

How the data were processed

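Per the labels' protocols, 100 ng of total RNA per sample was labelled with Cy3. Per the file headers, the 8 arrays shared 1 slide and 1 scan, the software was Feature Extraction 10.5, and mm9 is the build of the probes. The deposited processed intensity of a spot has a spatially detrended background subtracted and no normalization between arrays. The deposited flags are other values of 0 or 1. Outlier spots were dropped and the 11340 mouse spots averaged per probe. Probe means were divided by the array's 75th percentile, taken from the 152 probes that all arrays detected, and averaged per miRNA, with levels raised to a floor of 0.0162 (−5.95 in log2) and converted to log2. Only 1 of the 48 values of the tested members lay at the floor.

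The diabetic and control groups were set against each other in limma 3.58.1 (R 4.3.3, lmFit and eBayes) over the 126 miRNAs detected on at least 4 arrays, and member ratios by exact permutation tests, both tested on simulated data. Figures were drawn with matplotlib 3.10.9. The number of arrays limits the precision. The members, the related miRNAs and the marker lists were chosen with earlier results of these data known. The miRNAs named are the 9 members, 14 related entries, the marker lists and, per cluster, the 3 nearest profiles. The 23 alternatives changed the scaling, background correction (normexp), probe summary, outlier spots, detection rule, filter, floor, replicate block, variance model and the arrays used.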

Additional observations from a re-analysis of the deposited data

Results flagged for a closer look

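Of 36 groups of 4 arrays examined for an array far from the others (Dixon's 95% limit on the gap as a share of the range), 5 were past this value, where chance gives 1.8. In 4 of them the array was control 2. Its log2 level of miR-19b was −1.04 beside −1.72 to −1.61 on the other control arrays, and that of miR-20a was −1.45 beside −2.33 to −2.27. For miR-20b it was −4.25 beside −5.38 to −5.23, and for the mean of the tested miR-17-92 members −1.33 beside −2.04 to −1.93. The fifth was miR-93 on diabetic 1, at −4.996 beside −5.58 to −5.55, values near the floor of −5.95, with miR-93 not detected on diabetic 4. miR-20b was not detected on the control arrays other than control 2, so both gaps are measured from signal near background. The mean of a cluster and its members are not independent of each other.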

How the results depend on the processing

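Under all 23 alternatives 0 members passed limma's threshold, and in the 17 that bear on ratios 0 ratios passed. The ratio counts say little, because a change in a single ratio could not pass. With the replicate block the smallest possible exact permutation p was 0.125. With an array left out, a lone ratio at an exact permutation p of 0.0286 adjusted to 0.257. The counts over all miRNAs did move, from 6 higher and 0 lower to 0 higher without scaling, 2 higher when any spot above background counted as detection and 2 higher with the filter at 1 array, and to 1 lower when all mouse probes set the percentile, 2 with the median of the detected probes, 3 with normexp, 2 with the brightest probe, 1 with the scanner's total per miRNA and 2 with the filter at all 8 arrays. Leaving out single arrays gave 2 to 7 higher and 0 to 3 lower. With the replicate block 7 were higher and 3 lower, with 0 members among them. The number is also the slide column. Deviations of same-numbered arrays correlated at 0.21, 0.082, 0.51 and −0.29 (numbers 1 to 4), not all over 0.1, so the numbers were not treated as pairs.

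Across all tested miRNAs the median difference (log2) was −0.060, but 0.26 when all mouse probes set the percentile and 0.090 after quantile normalization. With the former the miR-17-92 mean was 0.43. The sign turned for miR-25 with both (0.26 and 0.11), for miR-19b and miR-20a without scaling (−0.0056 and −0.051), for miR-20a with any spot above background (−0.0022) and for miR-19b over miR-92a with outlier spots kept (0.020). Leaving out single arrays, miR-19b ran from −0.00064 to 0.25, miR-20a from −0.048 to 0.26, miR-106b from −0.017 to 0.34 and miR-25 from −0.19 to 0.10. The change of miR-19b over miR-20a ran from −0.014 to 0.10, of miR-19b over miR-92a from −0.18 to 0.047 and of miR-20a over miR-106b from −0.13 to 0.038. The cause was not tested. Signal near background limits miR-17, miR-18a, miR-19a and miR-93.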
